A study of Mus musculus with 8 samples.

Results

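Proteoglycans are proteins that carry long sulfated sugar chains, either chondroitin and dermatan sulfate or heparan sulfate, and hyaluronan is a related but protein-free chain spun out at the cell surface. The genes described here are 10 members of this matrix system, chosen by name: the hyaluronan synthase Has2, the hyaluronan-binding proteoglycan Vcan (versican) and its link protein Hapln1, the small leucine-rich proteoglycans Bgn (biglycan), Dcn (decorin) and Lum (lumican), the glypicans Gpc3 and Gpc4, and the syndecans Sdc1 and Sdc2. All 10 were found by symbol among the 55487 genes of the deposited count table. Libraries came from 2 groups of mouse embryonic stem cell cultures, harvested on day 6 of a serum-free differentiation towards precardiac mesoderm. The parental group was the E14-Tg2a line with wild-type Tbx1 (4 libraries). The mutant group was line 4D, a derivative of E14-Tg2a labelled Tbx1-/- (4 libraries). No other treatment is given for either group. Line 4D is a single line, so that effects of the Tbx1 genotype and of anything else specific to 4D cannot be told apart.

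In the embryonic heart, hyaluronan made by HAS2 and the versican bound to it fill the cardiac jelly, the matrix between myocardium and endocardium in which the cushions of the valves and outflow tract form. Link protein fastens versican to hyaluronan. Glypicans, held to the membrane by a lipid anchor, and syndecans, which span it, carry heparan sulfate chains that bind growth factors such as FGF, WNT, BMP and Hedgehog proteins. Small leucine-rich proteoglycans bind collagen fibrils and are abundant in mature connective tissue. Tbx1, the mutated gene, encodes a T-box transcription factor of the second heart field and pharynx.

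RNA was measured by QuantSeq, a method that primes at the poly(A) tail and reads only the 3′ end, so counts do not grow with transcript length. Depth was 3803561 to 6293907 counts per library. The unit used for levels is CPM: each count is divided by its library's size after TMM (trimmed mean of M values) adjustment. Tbx1 had 39, 65, 38 and 22 counts in parental libraries 1 to 4 and 3, 0, 1 and 0 counts in mutant libraries 1 to 4, which matches the labels. Of 12 marker genes of precardiac mesoderm, none was at 0 in all libraries, and their summed level was 1589 to 2039 CPM in the parental libraries and 1618 to 1885 CPM in mutant libraries. These similar sums hide changes of single markers: 8 had negative and 4 positive log2 fold changes, with a median of -0.51. At an unadjusted p under 0.05 by edgeR, 5 were lower and 2 higher, beside 11.9% of all genes in either direction. Within that list Gata6 was called higher (log2 fold change 0.72 ± 0.13 SE, adjusted p = 0.00516 by edgeR) and Fgf10 lower (-1.22 ± 0.27 SE, adjusted p = 0.0262 by edgeR), and DESeq2 called 2 higher and 3 lower. Mutant library 4 stood apart: it had the lowest depth, the fewest detected genes (14850, the others having 18213 to 19134), and the lowest sum of 12 cardiomyocyte markers, at 125 CPM against 653 to 3752 CPM. Values without it are given below for some members and related genes, and not for the marker genes.

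Of the 10 genes, 9 passed the filter on low counts and 2 of these, Gpc4 and Vcan, were higher in the mutant line with an adjusted p under 0.05 (edgeR quasi-likelihood test, Benjamini-Hochberg over all 13280 genes tested). None was called lower, with 1 at an unadjusted p under 0.05 (Gpc3) and 0 called lower with DESeq2. Over all genes, 1.42% were called in either direction, 0.745% higher and 0.67% lower (99 and 89 genes, or 100 and 57 when libraries were scaled by size alone). All 4 mutant libraries lay outside the range of the 4 parental libraries for 3 of the 9 tested genes, Gpc4, Sdc1 and Gpc3, against 7.52% of all genes tested. Gpc4 and Sdc1 were separated upwards, as were 3.49% of all genes, and Gpc3 downwards, as were 4.04%. The median log2 fold change of the 9 was 0.31, with 7 positive and 2 negative, beside a median of 0.001 over all genes. These are RNA levels of whole cultures, in which more cells of a type and more RNA per cell cannot be told apart.

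**Figure D1:**
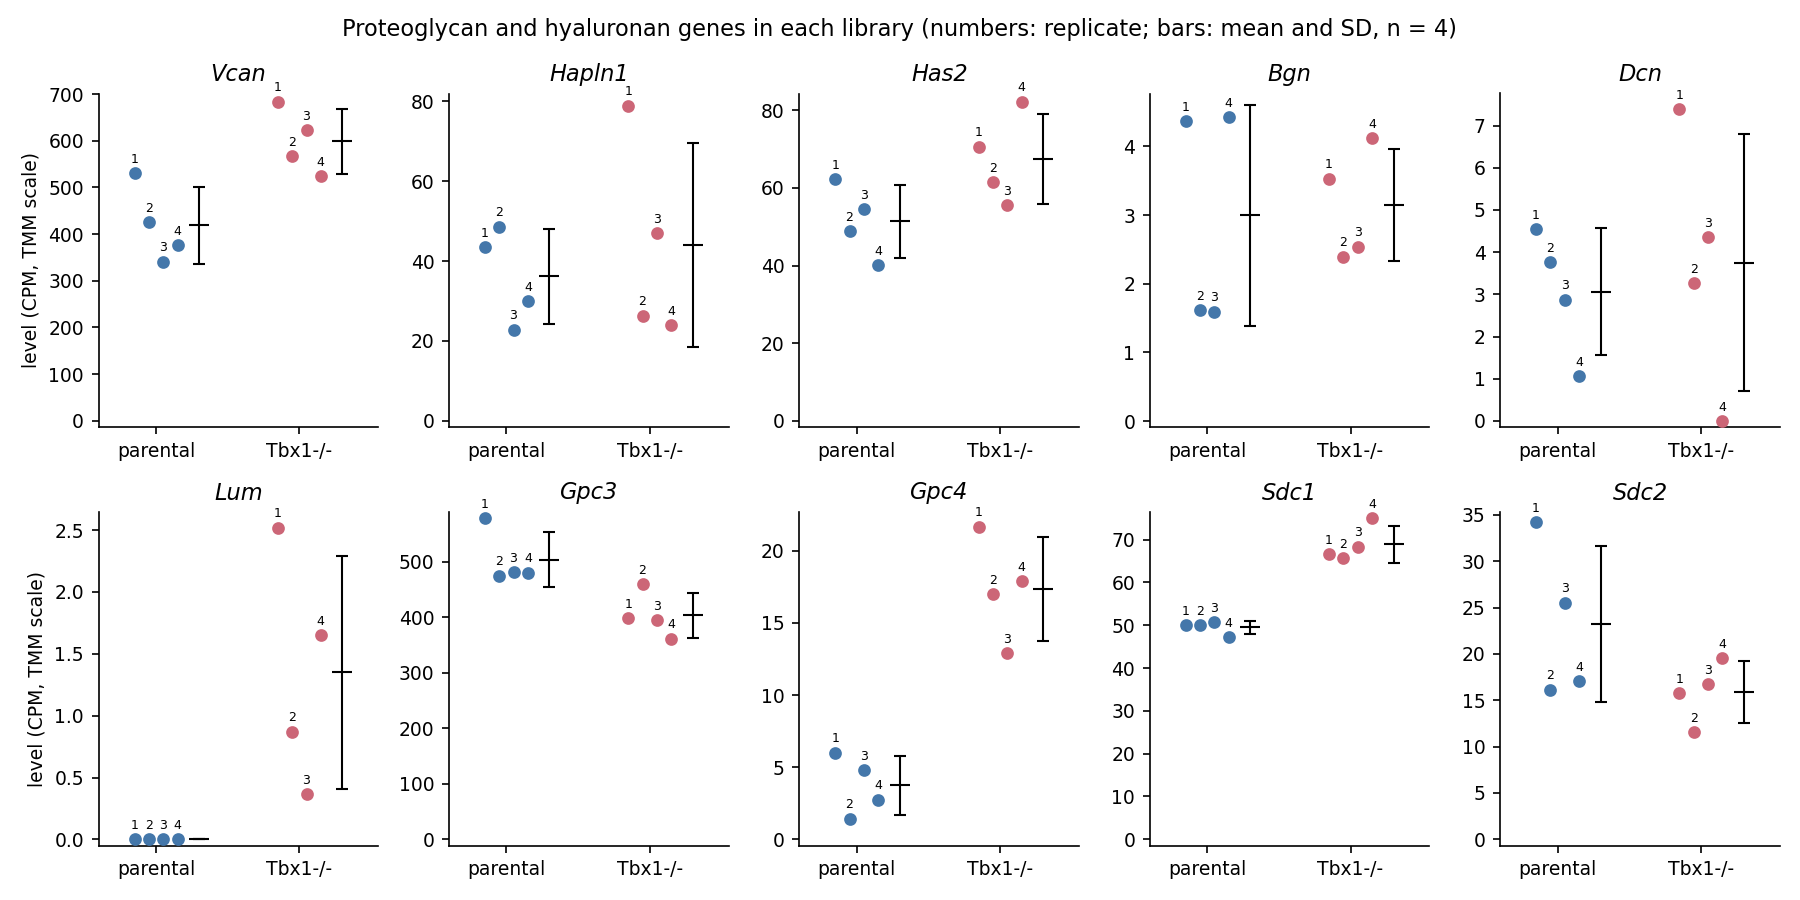
Level in CPM (vertical axes, linear, separate for each gene) of the 10 genes in 4 parental (blue) and 4 Tbx1-/- (red) libraries, with the replicate number above each point and the mean and SD (n = 4) as bars. The lines are fully separated for Gpc4, Sdc1, Gpc3 and Lum, and overlap for the other 6 genes.

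**Figure D2:**
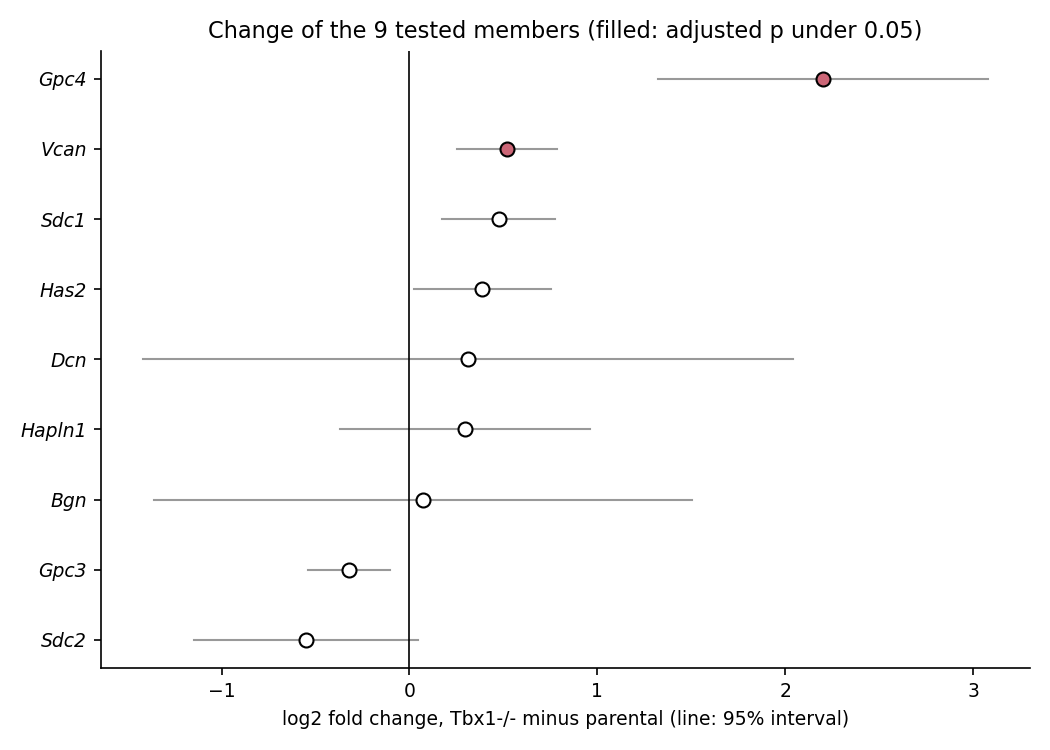
Log2 fold change (horizontal axis, mutant minus parental) of the 9 tested genes with its 95% interval from the edgeR fit; filled points have an adjusted p under 0.05. Gpc4 is at 2.20 and Vcan at 0.52, and the other 7 open points lie between -0.55 and 0.47.

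The hyaluronan synthase and the versican complex were taken first. Vcan (ENSMUSG00000021614.16, chromosome 13, 89655312 to 89742509, minus strand, GRCm38) encodes the large chondroitin sulfate proteoglycan of the cardiac jelly. Its level was 531, 426, 341 and 376 CPM in parental libraries 1 to 4 and 684, 566, 622 and 524 CPM in mutant libraries 1 to 4. A single parental library, number 1, reached into the mutant range, just above the lowest mutant library. The means were 418 ± 82.5 and 599 ± 69.5 CPM (SD, n = 4), a 1.43-fold rise (log2 fold change 0.52 ± 0.13 SE, adjusted p = 0.0489 by edgeR). With 6 of the 8 libraries left out in turn (parental 2, 3 and 4, mutant 1, 2 and 3) the call was lost, with an edgeR adjusted p of up to 0.198 and log2 fold changes of 0.42 to 0.65 over the 8 fits. Without mutant library 4 it was 0.58, with an edgeR adjusted p of 0.0263. Counts from the 3′ end do not separate the splice forms of versican, which differ in the exons that carry its sugar chains.

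The 250 bases before the RefSeq start of Vcan (chr13:89742513-89742762, minus strand, GRCm38.p6) are shown because Vcan and Gpc4 were the genes that rose. Capitals mark each GC box (GGGCGG or its reverse complement CCGCCC) and CCAAT box (CCAAT or ATTGG).
Vcan: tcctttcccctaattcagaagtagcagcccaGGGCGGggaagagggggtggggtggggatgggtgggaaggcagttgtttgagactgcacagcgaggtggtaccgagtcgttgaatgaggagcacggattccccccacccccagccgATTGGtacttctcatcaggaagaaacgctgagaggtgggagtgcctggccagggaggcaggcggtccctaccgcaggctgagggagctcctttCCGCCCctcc
The Vcan stretch held 2 GC boxes and 1 CCAAT box, and the T-box site AGGTGTGA, searched on both strands, was absent from it. Among 32851 windows of the same length in the RefSeq table, 32.7% held a GC box, 33.8% a CCAAT box and 1.1% the T-box site.

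Hapln1 (ENSMUSG00000021613.9, chromosome 13, 89539796 to 89611652, plus strand) lies next to Vcan, with 43659 bases and no protein-coding gene between them. The link protein gene had 43.5, 48.6, 22.8 and 29.9 CPM in the parental libraries and 79.0, 26.4, 47.0 and 23.9 CPM in mutant libraries 1 to 4. The mutant libraries spanned more than the whole parental range at the top and lay inside it at the bottom. The log2 fold change was 0.30 ± 0.32 SE (95% interval -0.37 to 0.96, adjusted p = 0.779 by edgeR). Its spread exceeded counting error by far: the coefficient of variation in mutant libraries was 57.8%, where their counts alone would give 6.53%.

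Has2 (ENSMUSG00000022367.7, chromosome 15, 56665627 to 56694539, minus strand) encodes the main hyaluronan synthase of the embryonic heart. It had 62.2, 48.8, 54.6 and 40.0 CPM in the parental libraries and 70.6, 61.4, 55.6 and 82.2 CPM in mutant libraries 1 to 4. The ranges overlapped between 55.6 and 62.2 CPM, and mutant library 4 was the highest of all. The log2 fold change of 0.39 ± 0.17 (SE) had an unadjusted p of 0.0387 but did not pass over all genes (edgeR adjusted p = 0.381). Without mutant library 4 it was 0.28, with an edgeR adjusted p of 0.602. The other synthases were near the limit of detection, with at most 17 counts of Has1 and 26 of Has3 in any library.

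Of the 2 glypicans, Gpc4 rose and its neighbour Gpc3 did not pass the test. Gpc4 (ENSMUSG00000031119.4, X chromosome, 52053021 to 52165252, minus strand) and Gpc3 (ENSMUSG00000055653.13, X chromosome, 52272426 to 52613950, minus strand) are neighbours, 107173 bases apart with no protein-coding gene between them. Gpc4 had 6.00, 1.44, 4.79 and 2.74 CPM in the parental libraries and 21.7, 17.0, 12.9 and 17.9 CPM in mutant libraries 1 to 4. In counts these were 33, 8, 30 and 13 against 129, 78, 71 and 65. Every mutant library was above every parental library, the closest being mutant library 3 at 12.9 and parental library 1 at 6.00 CPM. Gpc4 rose 4.60-fold, from 3.74 ± 2.04 to 17.4 ± 3.60 CPM (SD, n = 4), at a log2 fold change of 2.20 ± 0.42 SE (adjusted p = 0.00835 by edgeR). Among all tested genes its absolute change lay at percentile 99.6. The call held in each of the 16 alternatives, with log2 fold changes of 1.93 to 2.51 and a highest adjusted p of 0.0441, without mutant library 1.

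Gpc3, whose loss causes an overgrowth syndrome, had 579, 475, 482 and 481 CPM in the parental libraries and 398, 459, 395 and 362 CPM in mutant libraries 1 to 4. All mutant libraries lay below all parental libraries, while parental library 1 stood above the other parental values. The log2 fold change was -0.32 ± 0.10 (SE), with a 95% interval of -0.54 to -0.10, and did not pass over all genes (edgeR adjusted p = 0.167). An antisense gene, Gm14582, overlaps Gpc3 on the other strand and had at most 71 counts in any library. The table's name states forward-strand counting, which keeps such reads apart.

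The 250 bases before the RefSeq start of Gpc3 (chrX:52613975-52614224, minus strand, GRCm38.p6) are shown beside the stretch around the GC box of Gpc4 (chrX:52165123-52165152, minus strand), since the fitted changes of these neighbours had opposite signs. All 250 bases of the Gpc4 window lie within exons of the M21 annotation, so only 30 bases are shown for it. None of the Gpc3 window does. Capitals mark GC and CCAAT boxes as for Vcan.
Gpc3: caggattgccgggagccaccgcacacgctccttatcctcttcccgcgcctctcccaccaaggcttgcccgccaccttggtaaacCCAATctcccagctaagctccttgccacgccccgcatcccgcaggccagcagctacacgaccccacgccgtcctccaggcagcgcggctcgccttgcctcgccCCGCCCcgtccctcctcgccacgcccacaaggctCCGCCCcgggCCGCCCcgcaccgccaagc
Gpc4: ccctgagcccctCCGCCCctggctagctgg
The windows were rich in G and C, at 71.6% for Gpc3 and 68.4% for Gpc4, against a median of 52.4% over all windows. The T-box site, held by only 1.1% of all windows, was absent from both, and Gpc3 held 3 GC boxes against 1 in Gpc4. Because the Gpc4 window is exon sequence throughout, these values do not compare like stretches.

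Neither syndecan passed the test, and their fitted changes had opposite signs. Sdc1 (ENSMUSG00000020592.14, chromosome 12, 8771323 to 8793715, plus strand), the epithelial syndecan, had 50.0, 50.1, 50.7 and 47.2 CPM in the parental libraries and 66.5, 65.6, 68.3 and 75.1 CPM in mutant libraries 1 to 4. The groups were tight and did not overlap: the coefficient of variation was 3.17% in parental and 6.21% in mutant libraries, where counting alone gives 6.04% and 5.45%. The log2 fold change of 0.47 ± 0.14 (SE), with a 95% interval of 0.17 to 0.77, nevertheless did not pass over all genes (edgeR adjusted p = 0.123). The lowest adjusted p among its alternatives was 0.0519, with DESeq2.

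Sdc2 (ENSMUSG00000022261.6, chromosome 15, 32920723 to 33034935, plus strand), the syndecan of mesenchymal cells, had 34.2, 16.1, 25.5 and 17.1 CPM in the parental libraries and 15.8, 11.5, 16.7 and 19.5 CPM in mutant libraries 1 to 4. Parental libraries 1 and 3 were higher than every mutant library, and the other 2 lay within the mutant range. The log2 fold change was -0.55 ± 0.28 SE (95% interval -1.15 to 0.05, adjusted p = 0.472 by edgeR). It was -0.31 without parental library 1.

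Small leucine-rich proteoglycans were scarce. Bgn (ENSMUSG00000031375.17, X chromosome, 73483602 to 73495933, plus strand) lay between 1.60 and 4.42 CPM in the parental libraries and between 2.40 and 4.12 CPM in mutant libraries, a log2 fold change of 0.07 ± 0.68 (SE). Dcn (ENSMUSG00000019929.16, chromosome 10, 97479609 to 97518143, plus strand) had 4.55, 3.77, 2.87 and 1.05 CPM in the parental libraries and 7.39, 3.27, 4.36 and 0 CPM in mutant libraries 1 to 4, a log2 fold change of 0.31 ± 0.82 (SE). The intervals of -1.36 to 1.50 for Bgn and -1.42 to 2.04 for Dcn leave room for changes in either direction, and neither passed (edgeR adjusted p of 0.987 and 0.933). Counts were low, with at most 24 of Bgn and 44 of Dcn in any library. Except for Bgn in mutant libraries, the levels varied by more than counting gives. The coefficient of variation of Dcn was 49.1% in parental and 81.3% in mutant libraries, where counting gives 24.1% and 22.0%. That of Bgn was 53.7% in parental and 26.1% in mutant libraries, where counting gives 25.0% and 25.6%.

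Lum (ENSMUSG00000036446.5, chromosome 10, 97565128 to 97572703, plus strand), 46984 bases from Dcn, fell below the filter on low counts. It had 0 counts in all 4 parental libraries and 15, 4, 2 and 6 counts in mutant libraries 1 to 4. The parental counts allow up to 3 counts per library, which is 0.479 to 0.632 CPM. Against the mean of these floors, 0.549 CPM, the mutant mean of 1.35 ± 0.94 CPM (SD, n = 4) was 2.46-fold higher. That is not a lower bound on the change, since the mutant mean itself rests on 27 counts. Mutant library 3, at 0.363 CPM, lay below these floors. The two-sided exact permutation test of the 8 levels gave p = 0.0286 without adjustment, its lowest attainable value with 4 libraries in each group. The same test also gave 0.0286 for Gpc4 and for Gpc3 and Sdc1, which did not pass by edgeR. For Vcan, which did, it gave 0.0571. In the fit without a low-count filter, which tested 26750 genes, Lum did not pass (edgeR adjusted p = 0.202). This floor covers counting error only, whereas the 95% intervals of fold changes include the spread between libraries.

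The members were next set against each other within each library, as log2 ratios of 2 levels from the same library, with a prior count of 2 that bears on ratios of low counts. The size of such a ratio also reflects how well each 3′ end was captured, so only its difference between the lines is read. The Gpc3 to Gpc4 log2 ratio was 6.50, 8.03, 6.54 and 7.27 in parental and 4.18, 4.73, 4.90 and 4.31 in mutant libraries 1 to 4, a difference of -2.56 without overlap. Gpc3 and Gpc4 were each fully separated, in opposite directions, so this lack of overlap follows from their levels and is no further result. For Sdc1 to Sdc2 the log2 ratio was 0.54, 1.61, 0.98 and 1.45 in parental and 2.05, 2.47, 2.01 and 1.92 in mutant libraries, a difference of 0.97 without overlap. For each the two-sided exact permutation test gave p = 0.0286, its lowest attainable value, or 0.0571 after Benjamini-Hochberg adjustment over the 4 ratios computed. Both differences were seen in 4 of 4 mutant libraries but failed that correction. With a prior count of 0.5 their unadjusted p stayed at 0.0286 and the adjusted value was 0.0381 (exact permutation test). It was lower only because the Dcn to Lum ratio then reached 0.0286 too, so it adds nothing on these 2 pairs. The Vcan to Hapln1 ratio differed by 0.36 and overlapped (exact permutation p = 0.314, adjusted 0.314). The Dcn to Lum ratio differed by -2.22 (exact permutation p = 0.0571, adjusted 0.0762), a size that depends on the prior count because Lum was at 0 in the parental line, and that fell to -1.15 without mutant library 4, in which Dcn was at 0.

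**Figure D3:**
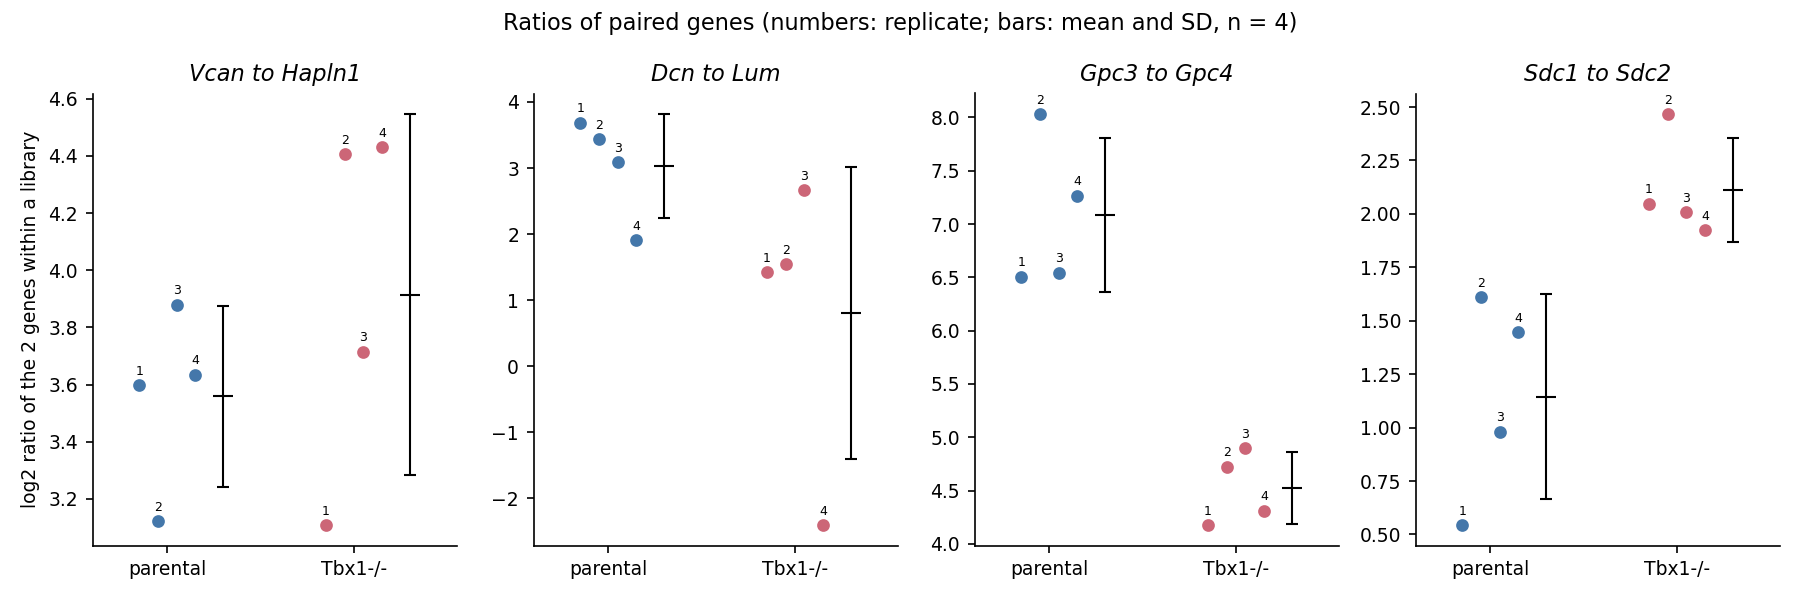
Log2 ratio of paired genes within each library (vertical axes, separate for each pair; prior count of 2) for parental (blue) and Tbx1-/- (red) libraries, with replicate numbers, means and SD (n = 4). Parental and mutant libraries are separated for Gpc3 to Gpc4 and for Sdc1 to Sdc2, and overlap for the other pairs.

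Other genes of the same system were counted in 6 lists, covering other core proteins, hyaluronan synthesis and turnover, enzymes of chondroitin and heparan sulfate chains, proteases that cleave proteoglycans, and binding partners. Of 143 listed genes, 93 were tested. A single gene was called higher, the protease Adamts1, and a single gene lower, the growth factor Tgfb1, beside 1.42% of all genes. The median log2 fold change of the 93 was 0.10, with 57 positive and 36 negative. Over all genes tested it was 0.001, with 6660 positive and 6620 negative. With DESeq2, 6 of the listed genes were called, 4 higher and 2 lower, beside 405 of all genes (209 higher and 196 lower). Without the low-count filter 7 were called, 6 higher and 1 lower, beside 439 of the 26750 genes then tested (208 higher and 231 lower).

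Adamts1 encodes a secreted metalloprotease that cleaves versican. It had 56.6, 58.5, 39.9 and 41.3 CPM in the parental libraries and 136, 116, 117 and 81.4 CPM in mutant libraries 1 to 4. The groups did not overlap, and mutant library 4 was the lowest of its group. Adamts1 rose by a log2 fold change of 1.20 ± 0.18 SE (adjusted p = 0.00108 by edgeR), and it passed in all 16 alternatives with an adjusted p of at most 0.0104. Among the 15 tested genes for cleavage and shedding, 5 were fully separated upwards and 1 downwards, beside 3.49% and 4.04% of all genes. The latter was Adamts20, another versican-cleaving protease, at a log2 fold change of -1.18 ± 0.41 SE (adjusted p = 0.214 by edgeR).

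Tgfb1, whose product binds the core proteins of decorin and biglycan, had 32.2, 29.4, 15.3 and 21.1 CPM in the parental libraries and 12.1, 10.5, 9.99 and 7.15 CPM in mutant libraries 1 to 4. The groups did not overlap, and Tgfb1 fell, at a log2 fold change of -1.29 ± 0.30 SE (adjusted p = 0.0330 by edgeR). The call was lost with limma-voom (adjusted p = 0.0677) and in 6 of the 8 fits without 1 library (parental 1, 2 or 4, mutant 2, 3 or 4), with adjusted p reaching 0.153 (edgeR). Its log2 fold change was -1.20 with limma-voom and -1.47 to -1.14 over the 8 fits. Without mutant library 4 it was -1.17, with an edgeR adjusted p of 0.0512. Egfr, the receptor of epidermal growth factor, averaged 3.91 ± 3.21 CPM in the parental line and 16.6 ± 3.45 CPM in the mutant line (SD, n = 4). The libraries were fully separated, but the difference did not pass (log2 fold change 2.10 ± 0.57 SE, adjusted p = 0.0829 by edgeR); it passed in 4 of 16 alternatives.

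In the hyaluronan list, 0 of 11 tested genes were called by edgeR in either direction (1 with DESeq2, Ugdh), and 3 had an unadjusted p under 0.05, all positive, a limit that 11.9% of all genes met. Ugdh makes the UDP-glucuronate used for hyaluronan and for the other chains. It was closest to the threshold, at 79.1, 80.9, 62.7 and 70.2 CPM in the parental libraries and 116, 82.4, 117 and 139 CPM in mutant libraries 1 to 4. The groups did not overlap, although mutant library 2 was only just above the highest parental library. The fitted log2 fold change was 0.63 ± 0.16 SE (adjusted p = 0.0518 by edgeR), and it passed in 5 of 16 alternatives, among them DESeq2 at 0.0108. Stab1, a hyaluronan scavenger receptor of endothelium and macrophages, differed by 0.92 ± 0.43 SE in log2 fold change (adjusted p = 0.410 by edgeR), and by 0.48 without mutant library 1.

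Chain enzymes gave no call in either list (0 of 21 and 0 of 19 tested genes by edgeR, with 1 and 6 at an unadjusted p under 0.05 beside 11.9% of all genes, and 0 of either list with DESeq2). Chst14, which sulfates dermatan sulfate, averaged 16.8 ± 2.40 CPM in the parental line and 28.1 ± 4.43 CPM in the mutant line (SD, n = 4; log2 fold change 0.74 ± 0.23 SE, adjusted p = 0.139 by edgeR). Chpf, a chondroitin polymerising factor, had a log2 fold change of -0.31 ± 0.22. For heparan sulfate, Glce, the epimerase of the chain, was at 0.78 ± 0.32 (edgeR adjusted p = 0.322). Hs3st3a1, a sulfotransferase, was at -0.73 ± 0.34 (edgeR adjusted p = 0.399). Among other core proteins, 0 of 17 tested genes were called, with 0 at an unadjusted p under 0.05 and 0 with DESeq2. Gpc6, a further glypican, had a log2 fold change of 0.38 ± 0.20 (0.23 without parental library 1 and 0.64 without parental library 4), and Agrn, the heparan sulfate proteoglycan agrin, a value of -0.31 ± 0.16.

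**Figure D4:**
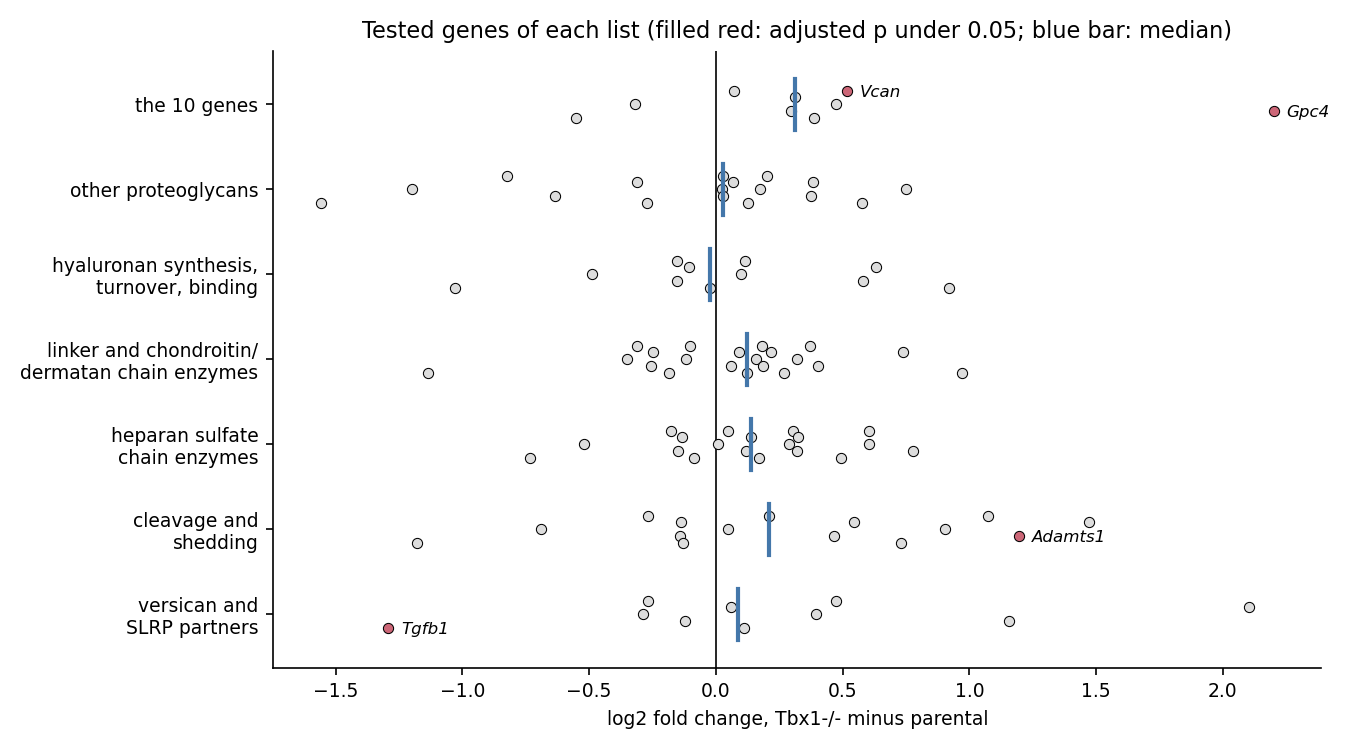
Log2 fold change (horizontal axis, mutant minus parental) of every tested gene in the list of 10 and in the 6 lists of related genes; red points have an adjusted p under 0.05 and blue bars are medians. Gpc4, Vcan and Adamts1 are red on the right and Tgfb1 on the left, and list medians lie between -0.02 and 0.31.

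Markers of other cell types also differed between the lines. Over all genes, edgeR called 0.745% higher and 0.67% lower, and 11.9% had an unadjusted p under 0.05. Of 10 tested mesenchyme and fibroblast markers, 7 had positive and 3 negative log2 fold changes, and 4 were called higher (Col1a2, Col3a1, Postn and Twist1). The summed level of all 11 listed was 1133 to 2489 CPM in the parental libraries and 2369 to 2924 CPM in mutant libraries. Of 9 erythroid markers, 4 were called higher, and their sum was 130 to 185 CPM in the parental libraries and 685 to 985 CPM in the mutant libraries, without overlap. Endoderm and epithelial markers summed to 276 to 482 CPM in the parental libraries and 251 to 299 CPM in mutant libraries, with 2 of 9 called lower. Endothelial markers summed to 633 to 991 and 749 to 1363 CPM, with 0 of 11 called by edgeR (1 at an unadjusted p under 0.05, and 1 called higher with DESeq2). Cartilage markers, relevant because cartilage is rich in proteoglycans, summed to 191 to 215 and 202 to 254 CPM with 0 of 6 called by edgeR (3 at an unadjusted p under 0.05, and 1 called higher with DESeq2), and the defining cartilage proteoglycan Acan was at 0 counts in all 8 libraries. Cardiomyocyte markers summed to 653 to 3752 CPM in the parental libraries and 125 to 1003 CPM in mutant libraries, with 0 of 11 called by edgeR or DESeq2. All 11 had negative log2 fold changes, with a median of -1.30, and 8 had an unadjusted p under 0.05, beside 11.9% of all genes. The part of these markers in the differences of Gpc4, Vcan, Lum and Adamts1 was not tested.

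Across the 8 libraries, the genes whose log2 level followed Gpc4 most closely among 9025 genes with a mean of at least 10 CPM were Epha7, Pdgfrb and Gm42991, with a Pearson r of 0.99, 0.97 and 0.96. These values describe 8 libraries that fall into 2 groups, so that any gene separated between the lines scores high. Epha7, an ephrin receptor, rose from 28.7 ± 6.79 to 75.1 ± 10.4 CPM (SD, n = 4; log2 fold change 1.39 ± 0.19 SE, adjusted p = 0.000507 by edgeR). Pdgfrb, a growth factor receptor of mesenchymal cells, did not pass, at a log2 fold change of 0.53 ± 0.19 SE (adjusted p = 0.215 by edgeR).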

How the data were processed

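The deposited values are raw counts, whole numbers for each gene and each of 8 libraries, neither normalized nor pooled by the authors. Per the submitters' processing notes, STAR, featureCounts and genome build mm10 were used; versions, annotation and duplicate removal are not given in the sources used here. Row identifiers were matched to GENCODE M21 (GRCm38) symbols, 55141 of 55487. Reads without molecular identifiers are not independent molecules.

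edgeR 4.0.16 in R 4.3.3 was used (filterByExpr, TMM, glmQLFit and glmQLFTest with line as the term, 13280 genes), with Benjamini-Hochberg adjustment at 0.05. Each SE was derived from the F statistic, and 95% intervals used a multiplier of 2.10. Ratios used log2 CPM with a prior count of 2 and two-sided exact permutation tests over 70 assignments. The cultures are called biological replicates, without saying what was independent, so p-values measure the spread between these libraries. The tests were checked on simulated data. None of the 12 pairs of libraries within a line agreed within sampling noise.

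Named genes were the 10 members, called genes of 6 lists, the 2 largest changes per list with a mean of at least 10 CPM, and the 3 genes most like the member with the smallest p; Has1, Has3 and Acan were named after their values were seen. Members and lists were chosen with earlier results of these data known. Alternatives were RLE size factors, library size alone, upper-quartile scaling, no low-count filter, a filter at 10 counts on average, DESeq2 1.42.0, limma-voom (limma 3.58.1), the replicate number as a block and each library left out. Promoter windows came from RefSeq (GRCm38.p6), which held 6 of the 10 members.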

Additional observations from a re-analysis of the deposited data

Results flagged for a closer look

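Gpc3 in parental library 1 stood apart from the other parental libraries, at 579 CPM against 475, 481 and 482 CPM. The gap to the nearest library was 0.939 of the range of the 4, above Dixon's 95% critical value. It was the only such value in 51 groups of 4 libraries examined (members, named genes of the lists and ratios), where chance gives about 1 in 20. Without that library the log2 fold change of Gpc3 was -0.25, with an edgeR adjusted p of 0.397.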

How the results depend on the processing

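Gpc4 and Adamts1 kept their calls in all 16 alternatives. The count of called members was 2 in 8 alternatives and fell to 1, Gpc4 alone, with library size alone and with upper-quartile scaling, where Vcan had adjusted p of 0.0657 and 0.0503; with 1 library left out it ranged from 1 to 2. Over all genes 188 were called, 439 without the low-count filter, 405 with DESeq2 and 103 to 235 with 1 library left out (103 without parental library 2, 104 without parental 3 and 116 without mutant 3). Library size alone called 157 genes, 100 higher and 57 lower, against 99 and 89. Pathway genes called numbered 2, but 7 without the low-count filter, 6 with DESeq2 and 1 to 2 with 1 library left out. With a prior count of 0.5 the Dcn to Lum ratio difference was -4.27, and it, Gpc3 to Gpc4 and Sdc1 to Sdc2 each had an exact permutation p of 0.0286, or 0.0381 adjusted over the 4 ratios. With 1 library left out Dcn to Lum ranged from -2.84 (without mutant library 3, exact permutation p = 0.0286 unadjusted) to -1.15. The same ranges were 0.77 to 1.12 for Sdc1 to Sdc2, 0.18 to 0.63 for Vcan to Hapln1 and -2.75 to -2.24 for Gpc3 to Gpc4. Sdc1 to Sdc2 had an exact permutation p of 0.0571 without any 1 mutant library. Changes that did not pass reversed sign for Hapln1 without mutant library 1 (-0.15, up to 0.49 without mutant 4), for Bgn without parental 2 (-0.14), parental 3 (-0.15) or mutant 4 (-0.08; up to 0.31 without parental 4), and for Dcn with limma-voom (-0.16), the replicate block (-0.10) or without mutant 1 (-0.24; up to 0.70 without mutant 4). The cause was not tested.

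Same-numbered libraries correlated in their deviations by -0.033 to 0.102, and 1 of 4 correlated best with its own number. Whether a shared number marks a shared batch is not stated in the labels, and these correlations cannot settle it. The replicate block gave 234 called genes, 172 shared with the 188, along with 2 members and 3 pathway genes. The paired ratio differences had the sizes given, with a sign-flip permutation p of 0.125 at best, the smallest that 4 pairs allow. With the low-count filter Lum was not tested.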
